A study of Mus musculus with 8 samples.

Results

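Immediate early genes and genes of the serum response were examined in cultured sacral neural crest cells of mouse embryos, 10 genes of the 6855 that were tested: Fos, Egr3, Nr4a1, Maff, Atf3, Klf10, Nfil3, Ptgs2, Ccn2 (also named Ctgf) and Sgk1. They were taken by gene symbol, and each was read by 1 probe set. The cells had migrated out of neural tube explants that were cut caudal to somite 24 at embryonic day 9.5 and kept for 24 hours in DMEM/F12 with 10% fetal bovine serum, and they were washed before RNA was extracted. In one group both copies of Sox10, which encodes a transcription factor of the neural crest, were the frameshift allele Dom (Dom/Dom), and the other group was wild type, with 4 Affymetrix Mouse Gene 1.0 ST arrays each, numbered as replicates 1 to 4 in both. The labels do not say which embryos or litters a replicate came from, and p-values therefore refer to the spread among these arrays, which may be technical. Values are log2 expression, and differences are Dom/Dom minus wild type.

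Immediate early genes are transcribed within minutes of a stimulus from proteins that the cell already holds. Growth factors and lipids of serum act through the ERK cascade and through actin on the serum response factor SRF and its partners, and cAMP and stress act on CREB and ATF proteins at cAMP response elements, after which the messages are lost quickly because many carry AU-rich elements. The same genes are known to respond to dissection, washing and changes of medium.

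The table of RefSeq promoters (build GRCm38.p6) held windows for 7 of the 10 genes, 14 windows in all because a gene can have several starts. The 250 bases before each start were searched on both strands. The core of the cAMP response element, TGACG, was found in at least 1 window of 6 of these 7 genes, against 19.8% of the 27025 genes in the table (17.8% of 32851 windows). A gene with several windows has more chances of a match, and the 7 genes had 14 windows, where 27025 genes had 32851. The shares of genes below are therefore not on equal terms with the counts of the 7. The full element TGACGTCA was found in 1 gene, Maff (1.77% of genes), as a match that overlaps TGACG on each strand, the AP-1 element TGANTCA in 0 of 7 (7.82%), and the CArG box, the binding element of SRF, in 0 of 7 (1.62%). The GC box GGGCGG was found in 7 of 7 (35.4%), and the EGR element GCGNGGGCG, which can overlap a GC box, in 3 of 7 (5.33%), Nr4a1, Maff and Nfil3. These are letter matches in a short window, and no factor was measured on them. Bases farther upstream or past the start were not searched, so a gene without a match may still carry the element there. Windows of 4 of the 6 genes with the TGACG core are shown as examples of where it lay, with the core in capitals on either strand. That of Ptgs2 is shown because this gene had the largest difference and no such match within the window.
Fos, chr12:85473640-85473889, plus strand: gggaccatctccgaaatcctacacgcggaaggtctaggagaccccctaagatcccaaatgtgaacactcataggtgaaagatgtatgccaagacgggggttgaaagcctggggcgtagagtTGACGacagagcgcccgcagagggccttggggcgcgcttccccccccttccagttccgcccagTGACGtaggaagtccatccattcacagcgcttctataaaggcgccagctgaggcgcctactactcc
Nr4a1, chr15:101266596-101266845, plus strand: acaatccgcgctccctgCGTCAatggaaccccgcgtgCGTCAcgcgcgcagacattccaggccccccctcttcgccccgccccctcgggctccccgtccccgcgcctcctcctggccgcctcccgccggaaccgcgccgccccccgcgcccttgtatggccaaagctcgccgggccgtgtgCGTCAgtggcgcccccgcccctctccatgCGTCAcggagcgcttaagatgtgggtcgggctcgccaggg
Maff, chr15:79347270-79347519, plus strand: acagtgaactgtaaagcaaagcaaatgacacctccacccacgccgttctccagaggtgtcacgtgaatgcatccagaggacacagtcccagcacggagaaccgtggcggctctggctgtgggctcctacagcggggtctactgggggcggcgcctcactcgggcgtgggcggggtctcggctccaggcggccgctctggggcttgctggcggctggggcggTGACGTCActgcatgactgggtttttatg
Atf3, chr1:191183334-191183583, minus strand: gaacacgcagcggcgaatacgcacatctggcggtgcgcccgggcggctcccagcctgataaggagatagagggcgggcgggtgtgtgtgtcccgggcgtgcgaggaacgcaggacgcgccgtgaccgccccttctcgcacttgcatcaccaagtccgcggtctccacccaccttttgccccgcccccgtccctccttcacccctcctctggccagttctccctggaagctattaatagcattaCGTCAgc
Ptgs2, chr1:150099781-150100030, plus strand: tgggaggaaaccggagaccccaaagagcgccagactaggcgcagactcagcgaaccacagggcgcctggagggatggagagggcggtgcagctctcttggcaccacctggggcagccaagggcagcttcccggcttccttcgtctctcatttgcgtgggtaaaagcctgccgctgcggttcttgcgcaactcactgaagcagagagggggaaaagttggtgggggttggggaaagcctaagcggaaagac
In Fos the core lay 129 to 125 and 66 to 62 bases before the start, in Nr4a1 it occurred 4 times, the nearest 40 to 36 bases before the start, and in Maff the full element lay 29 to 22 bases before it. In Atf3 it lay 7 to 3 bases before the start.

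Of the 10 genes, 9 stood above 0 in the difference between the genotypes, and 0 passed limma's test with Benjamini-Hochberg adjustment over all genes at 0.05, where 0.481% of all genes did and 0.0729% did so with a higher level in Dom/Dom. At an unadjusted p under 0.05, 2 of the 10 passed, Ptgs2 and Klf10, where 6.11% of all genes did. The median difference over the 10 was 0.19, against -0.00094 over all genes, of which 49.6% stood above 0. The 10 were chosen with earlier results of these data known, so values set beside those of all genes are descriptive only. Without wild-type replicate 1 the median was 0.29, again with 0 past limma's threshold (5 of 10 at an unadjusted p under 0.05, where 6.96% of all genes were). That array was the highest of its genotype for all 10 genes, so leaving it out had to raise each difference. Without both arrays of number 1 it was 0.33, and without those of number 3 or 4 it was 0.12 or 0.11. With the replicate number as a block in the fit, 1 of the 10 passed, Ptgs2, where 1.5% of all genes did and 0.452% did so with a higher level in Dom/Dom. In 0 of the 10 genes were the arrays of the genotypes free of overlap, which held for 3.78% of all genes. In bulk cultures a different number of cells that express a gene and a different amount of RNA per cell cannot be told apart.

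**Figure D1:**
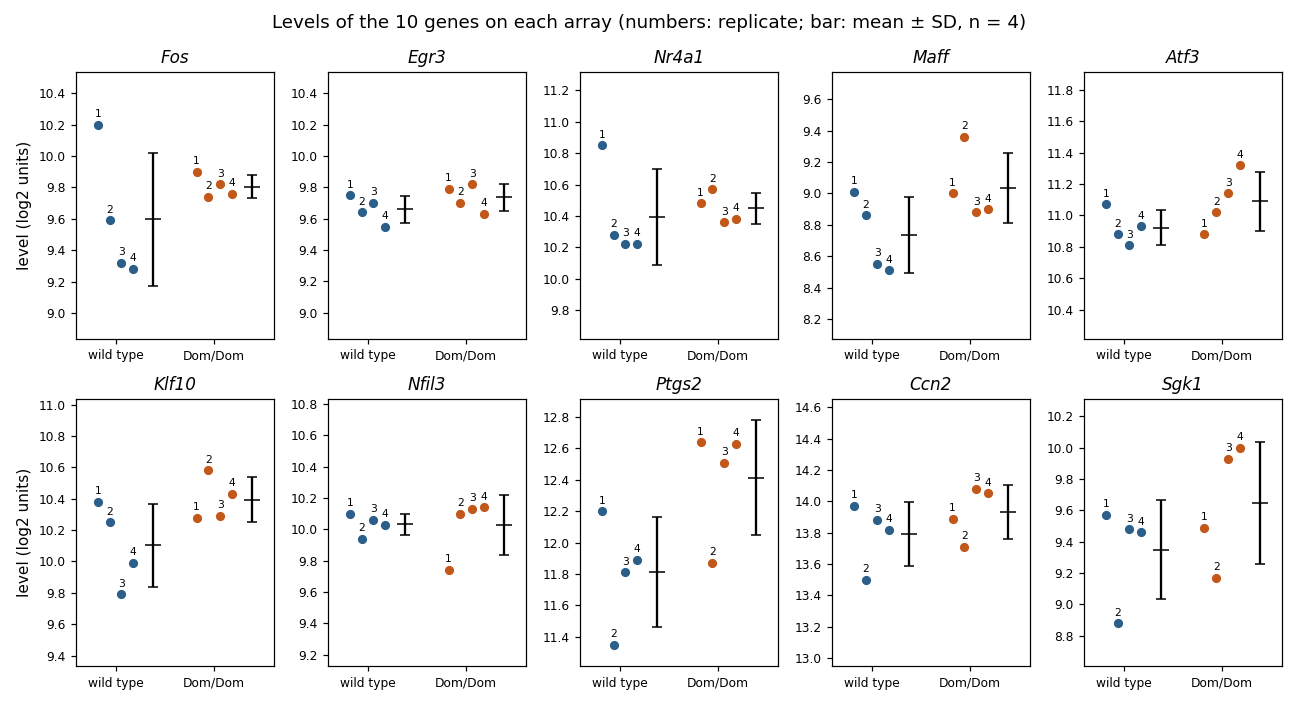
Level in log2 units (vertical axis, the same span in each panel) of the 10 genes on the wild-type and Dom/Dom arrays (horizontal axis). Points are arrays with their replicate number and bars are the mean ± SD (n = 4); wild-type replicate 1 is the highest wild-type array in every panel.

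Most of the genes, 7 of 10, encode transcription factors. Fos encodes the partner of JUN proteins in the AP-1 dimer (probe set 10397346, chromosome 12). Its level in wild type was 10.20, 9.59, 9.32 and 9.28 for replicates 1 to 4, and in Dom/Dom 9.90, 9.74, 9.82 and 9.76. The 4 Dom/Dom arrays lay close together and above 3 of the 4 wild-type arrays, and wild-type replicate 1 lay above all of them. The Dom/Dom mean was 9.80 ± 0.07 and the wild-type mean 9.60 ± 0.43 (SD, n = 4), and they differed by 0.20 ± 0.18 (SE; limma adjusted p = 1; 95% confidence interval -0.19 to 0.60). Without wild-type replicate 1 the difference was 0.41 (limma adjusted p = 0.157), and it was 0.11 without wild-type replicate 3 and 0.10 without wild-type replicate 4.

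Nr4a1 encodes NUR77, an orphan nuclear receptor (probe set 10427035, chromosome 15). It stood at 10.85, 10.28, 10.22 and 10.22 in wild type and at 10.48, 10.57, 10.36 and 10.38 in Dom/Dom. As for Fos, the 4 Dom/Dom arrays lay above wild-type replicates 2 to 4 and below wild-type replicate 1. The difference was 0.06 ± 0.14 (SE; limma adjusted p = 1), and it was 0.21 without wild-type replicate 1 (limma adjusted p = 0.605). It turned just below 0 without replicate 2, or without wild-type replicate 3 or 4.

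Egr3 encodes a zinc finger factor of the early growth response family (probe set 10416251, chromosome 14). Wild-type arrays held 9.75, 9.64, 9.70 and 9.55 and Dom/Dom arrays 9.79, 9.70, 9.82 and 9.63. Its groups overlapped and its whole range over the 8 arrays was 0.27, the smallest of the 10 genes. The difference was 0.08 ± 0.08 (SE; limma adjusted p = 1; 95% confidence interval -0.10 to 0.25), and Dom/Dom was above wild type in 4 of 4 pairs of same-numbered arrays. It was 0.04 without wild-type replicate 4 and 0.05 without Dom/Dom replicate 3.

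Maff encodes a small MAF protein, which lacks an activation domain of its own and works in dimers (probe set 10425283, chromosome 15). It stood at 9.01, 8.86, 8.55 and 8.51 in wild type and 9.00, 9.36, 8.88 and 8.90 in Dom/Dom. In both genotypes replicates 1 and 2 were above replicates 3 and 4, and within each number from 2 to 4 Dom/Dom was the higher. The difference was 0.30 ± 0.14 (SE; limma adjusted p = 0.873; 95% confidence interval -0.01 to 0.61), and it was 0.19 without Dom/Dom replicate 2.

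Atf3 encodes a stress-induced bZIP factor of the CREB and ATF family (probe set 10361091, chromosome 1). It stood at 11.07, 10.88, 10.81 and 10.93 in wild type and at 10.88, 11.02, 11.14 and 11.32 in Dom/Dom. The lowest Dom/Dom array and the highest wild-type array were both replicate 1, and Dom/Dom replicates 2 to 4 lay above wild-type replicates 2 to 4. The difference was 0.17 ± 0.10 (SE; limma adjusted p = 1), and it was 0.09 without Dom/Dom replicate 4.

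Klf10, also known as TIEG1, encodes a zinc finger factor first described as induced by TGF-beta (probe set 10428302, chromosome 15). It held 10.38, 10.25, 9.79 and 9.99 in wild type and 10.28, 10.58, 10.29 and 10.43 in Dom/Dom. Wild-type replicates 2 to 4 lay below all 4 Dom/Dom arrays, and wild-type replicate 1 lay among them. The difference was 0.29 ± 0.13 (SE; unadjusted p = 0.0484, limma adjusted p = 0.801), and it was 0.19 without wild-type replicate 3.

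Nfil3 encodes a bZIP repressor of clock and immune genes (probe set 10409278, chromosome 13). Its wild-type levels were 10.10, 9.94, 10.06 and 10.03 and its Dom/Dom levels 9.74, 10.10, 10.13 and 10.14. Dom/Dom replicate 1 was low and the other 3 Dom/Dom arrays were at or above the wild-type arrays. The difference was -0.0044 ± 0.10 (SE; limma adjusted p = 1; 95% confidence interval -0.23 to 0.22), and it stood above 0 when the arrays were centred on their medians or quantile normalised (0.03 in each) and without Dom/Dom replicate 1 (0.09) or wild-type replicate 1 or 3 (0.02 and 0.01).

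Of the genes that encode enzymes, secreted proteins and kinases, Ptgs2 had the largest difference of the 10. It encodes cyclooxygenase 2, the inducible enzyme that turns arachidonic acid into the precursor of prostaglandins (probe set 10350516, chromosome 1). Its levels were 12.20, 11.35, 11.81 and 11.89 in wild type and 12.64, 11.87, 12.51 and 12.63 in Dom/Dom. Replicate 2 was the lowest array of both genotypes, so the groups overlapped, but within each number Dom/Dom was the higher, by 0.44, 0.52, 0.70 and 0.74. The means were 12.41 ± 0.37 and 11.81 ± 0.35 (SD, n = 4), a 1.51-fold difference (0.60 ± 0.20, SE; unadjusted p = 0.0143, limma adjusted p = 0.456). With the replicate block the standard error was 0.06 and Ptgs2 rose in Dom/Dom (limma adjusted p = 0.0138; 95% confidence interval 0.44 to 0.75). With a block of replicates 1 and 2 against 3 and 4 it did not pass (adjusted p = 0.256).

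Ccn2 encodes connective tissue growth factor, a matrix protein that serum and mechanical load induce through SRF and YAP (probe set 10362201, chromosome 10). It stood at 13.97, 13.50, 13.88 and 13.82 in wild type and at 13.89, 13.71, 14.08 and 14.05 in Dom/Dom. Replicate 2 was the lowest array in both genotypes, and Dom/Dom was the higher in pairs 2 to 4, by 0.20 to 0.23. The difference was 0.14 ± 0.12 (SE; limma adjusted p = 1). It was 0.04 without wild-type replicate 2, 0.09 without Dom/Dom replicate 3 and 0.21 without Dom/Dom replicate 2.

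Sgk1 encodes a serum- and glucocorticoid-induced kinase that regulates ion transport and survival (probe set 10362073, chromosome 10). It held 9.57, 8.88, 9.48 and 9.46 in wild type and 9.49, 9.17, 9.93 and 10.00 in Dom/Dom. Replicate 2 was again the lowest array of both genotypes, and Dom/Dom replicates 3 and 4 lay above all 4 wild-type arrays. The difference was 0.30 ± 0.20 (SE; limma adjusted p = 1; 95% confidence interval -0.15 to 0.74). It was 0.14 without wild-type replicate 2, 0.18 without Dom/Dom replicate 4, 0.20 without Dom/Dom replicate 3 and 0.46 without Dom/Dom replicate 2.

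The arrays of a genotype did not stand in the same order for every gene. In wild type, replicate 1 was the highest array for 10 of 10 genes, where it was the highest wild-type array for 35.3% of all genes, and replicates 2, 3 and 4 were so for 0 of 10 each (26%, 17% and 21.7% of all genes). Its excess over the wild-type mean ran from 0.07 (Nfil3) to 0.60 (Fos), with a median of 0.25, against a median of 0.03 over all genes. In Dom/Dom no array stood out in this way, as replicates 1 to 4 were the highest for 2, 3, 2 and 3 of the 10 genes (34.6%, 28.4%, 12.3% and 24.7% of all genes). The members' mean level was 10.71 in wild-type replicate 1, against 10.32 to 10.37 in the other 3 wild-type arrays and 10.58 to 10.72 in the Dom/Dom arrays.

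Replicate 2 divided the genes. In Dom/Dom replicate 2 the effector genes were low, with deviations of -0.54 for Ptgs2, -0.48 for Sgk1 and -0.22 for Ccn2 from the genotype's mean, and Maff and Klf10 were high, at 0.33 and 0.19. In wild-type replicate 2 the same effector genes were low, at -0.47, -0.47 and -0.29, and Maff and Klf10 again lay above the mean, at 0.12 and 0.15. The spread within a genotype was largest for Ptgs2 and Sgk1, each with an SD of 0.36, and for Fos, with 0.30, and lowest for Egr3, with 0.08, against a median of 0.15 over all genes.

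**Figure D2:**
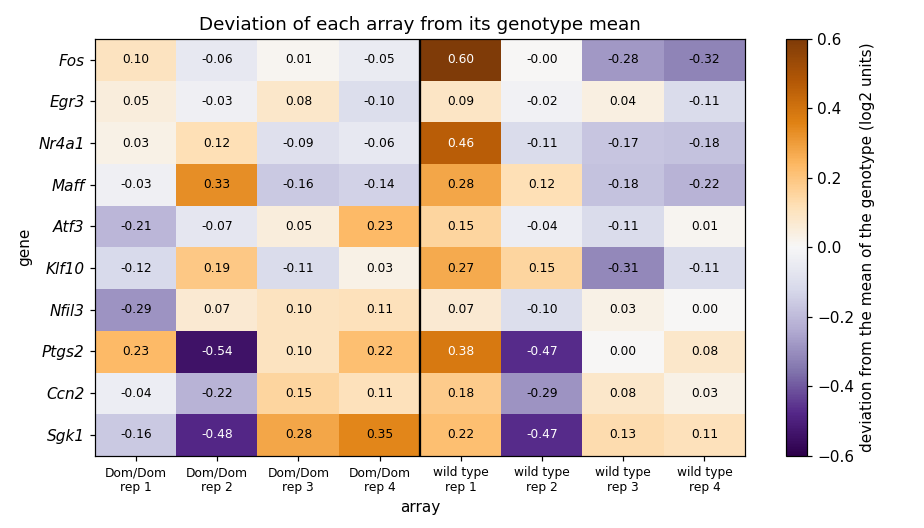
Deviation of each array (columns) from the mean of its genotype in log2 units, for the 10 genes (rows); orange is above and purple below the mean, with the value printed. Wild-type replicate 1 is above the mean for all 10 genes, and Ptgs2, Ccn2 and Sgk1 are low in replicate 2 of both genotypes.

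Whether same-numbered arrays showed the same direction was then asked gene by gene. In pairs 2, 3 and 4 Dom/Dom was above wild type for 10 of 10 genes each, where 56.5%, 46.2% and 50.1% of all genes were. The medians over the 10 were 0.25, 0.33 and 0.39, against 0.02, -0.01 and 0.00070 over all genes. In pair 1 Dom/Dom was above wild type for 2 of 10 genes, Egr3 (0.04) and Ptgs2 (0.44), where 46.8% of all genes were, and the median was -0.09. The lowest differences of pair 1 were those of Nr4a1 (-0.37), Nfil3 (-0.36), Fos (-0.30) and Atf3 (-0.19). The pattern below 0 in pair 1 and above 0 in the other 3 pairs held for 8 of 10 genes and for 12.6% of all genes, and above 0 in pairs 2 to 4 held for 10 of 10 and for 23.1%. Above 0 in all 4 pairs were 2 of 10 and 10.4% of all genes. As the 10 were chosen with earlier results of these data known, these shares describe them and are no test.

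**Figure D3:**
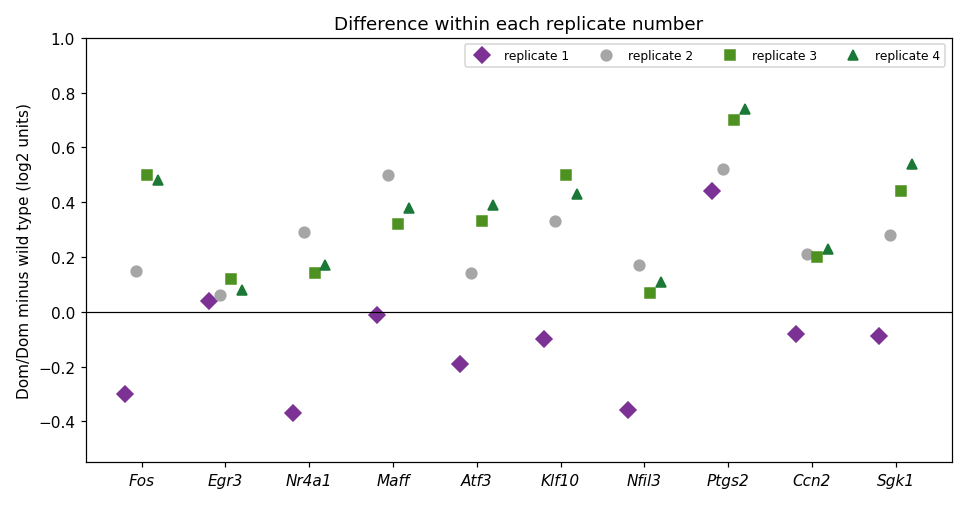
Difference between Dom/Dom and wild type in log2 units (vertical axis) within each replicate number for the 10 genes (horizontal axis); each point is 1 pair of arrays. The points of replicates 2 to 4 all lie above 0 and those of replicate 1 lie below 0 except for Egr3 and Ptgs2.

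The fits within sets of replicates differed accordingly. Those within replicates 1 and 2 and within replicates 3 and 4 had 2 arrays per genotype and no block. Within 3 and 4, deviations of Dom/Dom and wild-type arrays of different numbers also correlated (0.38 and 0.21), so these arrays may not be independent. Within replicates 3 and 4, limma called 4 of the 10 genes, all higher in Dom/Dom, where 5.13% of all genes were called and 1.56% were called higher: Fos (0.49, adjusted p = 0.0166), Ptgs2 (0.72, adjusted p = 0.00528), Klf10 (0.47, adjusted p = 0.0477) and Sgk1 (0.49, adjusted p = 0.0164). Within replicates 1 and 2 it called 0 of 10, where 0.0584% of all genes were called, and Fos, Nr4a1, Atf3 and Nfil3 stood below 0. At an unadjusted p under 0.05 it was also 0 of 10 in that fit, where 2.13% of all genes passed. With the replicate block and pair 1 left out, a setting added after the data were seen, 5 of 10 rose, Fos, Maff, Ptgs2, Klf10 and Sgk1, with adjusted p from 0.00422 to 0.0488, where 6.93% of all genes were called and 2.93% were called higher. That setting leaves out the pair that ran the other way, and the difference between pair 1 and the other pairs was not tested.

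Other genes of the same response were read from lists. Of 63 listed immediate early genes, 26 outside the 10 were measured, so much of the list was not seen. Of these 26, 19 stood above 0, where 49.6% of all genes did, with a median difference of 0.14. In limma's test over all genes 0 passed, and 4 had an unadjusted p under 0.05, where 6.11% of all genes did. With the replicate block 0 passed. The same shares of all genes, 49.6% and 6.11%, apply to the lists below. Lif, a cytokine of the interleukin 6 family, had the largest difference (Dom/Dom 8.75 ± 0.11, wild type 8.39 ± 0.21, SD, n = 4; limma adjusted p = 0.360), followed by the polo-like kinase gene Plk2 (12.00 ± 0.24 and 11.69 ± 0.23; adjusted p = 0.855). Wild-type replicate 1 was the highest wild-type array for 16 of the 26, and for 35.3% of all genes. Among these genes, picked after their values were seen, Myc held 12.07, 11.54, 11.29 and 11.30 in wild type, an order of arrays like that of Fos, and Btg1, an antiproliferative gene, ran the other way at 12.09, 12.32, 12.67 and 12.82. The list's median by pair was -0.03, 0.15, 0.13 and 0.23.

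Upstream of these genes, 9 of 19 measured genes of the ERK, JNK and p38 kinase cascades and of the partners of SRF stood above 0, with a median of -0.01, and 0 passed (0 at an unadjusted p under 0.05, and 0 with the block). Srf itself was not analysed here. The largest differences were those of Map3k5 (-0.29) and Map3k1 (-0.18), which encode kinases upstream of JNK and p38. Of 9 feedback inhibitors of ERK and EGR signalling, 8 stood above 0 with a median of 0.06 and 0 passed (1 unadjusted), led by the phosphatase gene Dusp10 (0.24, limma adjusted p = 0.995) and by Nab2, a corepressor that EGR proteins bind and induce (0.21, adjusted p = 0.851). Nab2 followed the members in that wild-type replicate 1 was its highest wild-type array, at 11.31 against 10.99 to 11.04. Of 4 measured receptors for serum factors, 0 passed (0 unadjusted) and 1 rose with the replicate block, the EGF receptor gene Egfr (0.37; blocked adjusted p = 0.0452, 0.826 without), while the lysophosphatidic acid receptor gene Lpar6 stood at 0.15.

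Of 8 actin and MRTF targets of SRF, 8 stood above 0, with a median of 0.10, and 0 passed (0 unadjusted); the largest were Itga5, a fibronectin receptor subunit (0.24), and Fhl2, a LIM domain cofactor (0.18). Of 7 genes of YAP and TEAD signalling, 7 stood above 0 with a median of 0.09, and 0 passed (1 unadjusted), led by the kinase gene Nuak2 (0.31, limma adjusted p = 0.244) and by Ajuba (0.21). Of 3 other measured CCN genes, 1 rose with the replicate block, Ccn4, a Wnt-induced matrix protein gene. Its Dom/Dom mean was 9.90 ± 0.16 and its wild-type mean 9.37 ± 0.27 (SD, n = 4), and it was above 0 in 4 of 4 pairs (0.52; limma adjusted p = 0.188, 0.0410 with the block), and Ccn6 stood at -0.07.

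Of 16 bZIP relatives of FOS, ATF3, MAFF and NFIL3, 4 stood above 0, with a median of -0.04, and 0 passed (2 unadjusted); the largest differences were those of Nfe2 (-0.23) and of Ddit3, the stress factor CHOP (-0.17). Of 10 other KLF and SP genes, 8 stood above 0 with a median of 0.11 and 0 passed (1 unadjusted), led by Klf5 (0.33, limma adjusted p = 0.644) and Klf6 (0.19).

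Around Ptgs2, 6 genes of prostaglandin synthesis and reception were measured; 4 stood above 0, 0 passed (1 unadjusted), and 1 rose with the replicate block. This was Pla2g4a, the cytosolic phospholipase that releases arachidonic acid, the substrate of cyclooxygenase. Its levels were 8.61, 8.47, 8.81 and 9.03 in wild type and 9.08, 8.82, 9.42 and 9.86 in Dom/Dom. Dom/Dom was the higher in 4 of 4 pairs and the groups overlapped (0.57 ± 0.21, SE; limma adjusted p = 0.537, 0.0339 with the block). Ptges3, a cochaperone and prostaglandin E synthase, stood at 0.19, and the prostaglandin E receptor genes Ptger2 and Ptger4 at -0.09 and 0.00097.

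Around Sgk1, 2 of 7 measured genes of SGK, glucocorticoid and PI3K signalling stood above 0, and 0 passed (2 unadjusted). Ddit4, an inhibitor of mTOR that glucocorticoids and stress induce, fell with the replicate block (-0.34; blocked adjusted p = 0.0353, 0.642 without), and Ndrg1, a substrate of SGK1, stood at -0.29. Of 6 genes for the decay of AU-rich messages, 4 stood above 0 and 0 passed (0 unadjusted), with Zfp36l1 at 0.15 and Cnot8 at -0.09. Of 6 measured genes of culture stress, 4 stood above 0 with a median of 0.03, and 0 passed (2 unadjusted). Its largest differences were those of Ddit4 and Ddit3, given above, and the heat shock genes Hspb1, Hspa8 and Hsp90aa1 stood at 0.14, 0.04 and 0.01.

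**Figure D4:**
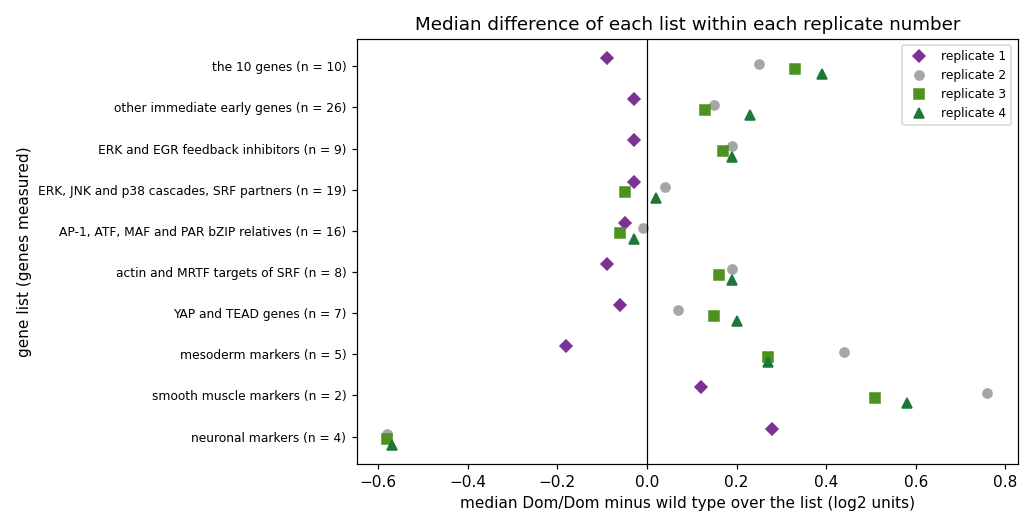
Median difference between Dom/Dom and wild type in log2 units (horizontal axis) over each gene list (vertical axis, with the number of genes measured) within each replicate number. The 10 genes have medians of -0.09, 0.25, 0.33 and 0.39 for replicates 1 to 4, and the neuronal markers have 0.28, -0.58, -0.58 and -0.57.

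Markers of cell types moved beside these genes. Sox10 itself had a mean of 10.50 ± 0.40 on Dom/Dom arrays against 11.69 ± 0.18 on wild-type arrays (SD, n = 4; limma adjusted p = 0.0168). Of 7 measured neural crest markers 2 fell, Sox10 and Erbb3 (3 with the replicate block, Tfap2a being the third); the list's mean level was 11.10 to 11.35 in Dom/Dom and 11.73 to 12.22 in wild type. Of 4 measured glial markers 2 fell, Cdh19 and Cnp (list means 9.25 to 9.52 against 10.47 to 11.10), while Fabp7 stood at -0.08 and S100b at -0.04. Of 2 smooth muscle markers 0 passed and both stood above 0, with list means of 10.04 to 10.51 in Dom/Dom and 9.55 to 9.93 in wild type and medians by pair of 0.12, 0.76, 0.51 and 0.58. These were Myocd (0.63, adjusted p = 0.353) and Des (0.36, adjusted p = 0.371). Of 5 mesoderm markers 0 passed, and Myf5 had the largest difference (0.60, limma adjusted p = 0.201). Prrx1 rose with the block (0.44, blocked limma adjusted p = 0.0339). The medians of the mesoderm markers by pair were -0.18, 0.44, 0.27 and 0.27 (list means 8.56 to 9.03 and 8.34 to 8.68). Like the members, both lists had their lowest median in pair 1. Myf5 (0.02), Meox1 (-0.46), Twist1 (-0.18) and Foxc1 (-0.22) were each lowest in that pair. Prrx1 stood at 0.49 there and was lowest in pair 3 (0.27). A lowest median in pair 1 was also seen in other lists, such as the actin and MRTF targets of SRF (-0.09).

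The 4 measured neuronal markers had 0 called without the block and 1 that fell with it, Pou4f1, and their medians ran opposite to those of the members, at 0.28 in pair 1 and -0.58, -0.58 and -0.57 in pairs 2 to 4 (list means 10.27 to 10.80 in Dom/Dom and 10.66 to 11.37 in wild type). Pou4f1 itself did not follow these medians, as it stood below 0 in pair 1 too (-0.47). In that pair Isl1 (0.18), Nefl (0.38) and Nefm (0.47) stood above 0. The 3 epithelial markers had a median of -0.50 (10.24 to 10.73 and 10.62 to 11.20), 0 passed, and Krt8 fell with the block. Krt5 had their largest difference (-0.83, limma adjusted p = 0.554), with 0.38 in pair 1 and -0.82, -1.19 and -1.68 in pairs 2 to 4. Of 2 blood markers Hba-x, an embryonic globin, stood at 12.02 ± 0.90 and 12.71 ± 0.91 and the leukocyte gene Ptprc at 7.01 ± 0.05 and 7.04 ± 0.07 (SD, n = 4); list means were 8.89 to 9.91 and 9.38 to 10.31. The endothelial marker Pecam1 stood at -0.03 and the neural tube marker Pax3 at 0.05. The part of these cell types in the levels of the 10 genes was not tested. The values have no true zero, so no marker could be called absent.

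The genes whose values followed the mean of the 10 most closely were sought among all others, with each gene centred on its genotype's mean. Over the 8 arrays the highest Pearson correlations were those of Klf6 (0.98), itself an immediate early gene, Myo1c, an unconventional myosin (0.96), Tmbim1 (0.95), Ptk2b, the calcium-sensitive focal adhesion kinase PYK2 (0.95), and Il17rd, an inhibitor of FGF signalling also called SEF (0.94). These are the highest of all genes by choice, and the arrays share all that differs between cultures, so the values describe likeness alone. In each of the 5, wild-type replicate 1 was the highest wild-type array, as in Klf6 with 12.17, 11.73, 11.81 and 11.84. This follows largely from the choice, as that array was also the highest wild-type array for the mean of the 10. Within the set, the correlation of a gene with the mean of the other 9 ran from 0.10 (Maff) to 0.72 (Fos).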

How the data were processed

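RNA of 8 samples of cultured cells was read on 1-colour arrays. The authors deposited log2 expression per probe set, and the submitters' processing notes name RMA and Partek, whose versions are not given in the sources used here. By its usual steps RMA subtracts background, brings arrays to one distribution and summarises the probes, which narrows differences between dim probe sets. No detection calls came with the deposited values, and precision is limited by the number of arrays. There were 16381 probe sets, a part of the array. Of these, 7416 had 1 gene symbol in the platform annotation, 509 several and 8456 none. The brightest probe set per gene left 6855 genes, of which 6829 matched the RefSeq table of GRCm38.p6 by gene identifier. Array medians over these genes lay between 9.18 and 9.33.

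The 8 arrays were fitted in R 4.3.3 with limma 3.58.1 (lmFit, eBayes, a two-sided test of genotype alone), and p-values were adjusted after Benjamini and Hochberg over all genes, with a threshold of 0.05. Older symbols were brought to RefSeq's through its synonyms. The fit was tested on simulated data with independent noise on each array. These data held no effect shared within a replicate number, so the simulation does not bear on such effects. Same-numbered arrays deviated from their genotype means together, with correlations of 0.47, 0.58, 0.61 and 0.67, all over 0.1, and the numbers were therefore treated as pairs, which rests on the data and not on a label; the blocked value stands where it changed a call. Deviations of different numbers also correlated above 0.1 within replicates 1 and 2 and within 3 and 4. Named genes were the 10, Sox10, list members past the threshold or else the 2 with the largest difference, and the 5 most alike; others were chosen after their values were seen. The genes and lists were chosen with earlier results of these data known. The alternatives were other normalisations, filters, probe set choices, variance models, blocks and arrays left out.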

Additional observations from a re-analysis of the deposited data

Results flagged for a closer look

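For each named gene and genotype, a value far from the other 3 arrays was looked for. Of 110 sets of 4 arrays, 13 held one, where about 1 in 20 sets, or 6, is expected by chance. Of the 20 sets of the 10 genes, 4 held one, where chance gives about 1. Nr4a1 was high in wild-type replicate 1 (10.85, others 10.22 to 10.28), Ptgs2 was low in Dom/Dom replicate 2 (11.87, others 12.51 to 12.64), Nfil3 was low in Dom/Dom replicate 1 (9.74, others 10.10 to 10.14), and Sgk1 was low in wild-type replicate 2 (8.88, against 9.46 to 9.57).

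In wild-type replicate 1, Nab2 (11.31), Myo1c (11.11, others 10.63 to 10.69) and Il17rd (10.30, others 9.85 to 9.88) were high, the last a pair of genes chosen for their likeness to the members. In wild-type replicate 2, Plk2 (11.34, others 11.76 to 11.83) and Ndrg1 (9.82, others 10.30 to 10.32) were low and Map3k1 (10.69, others 10.53 to 10.55) was high. Low values were those of Lpar6 in wild-type replicate 3 (12.88, against 12.99 to 13.00), Fhl2 in Dom/Dom replicate 2 (9.77, others 10.19 to 10.23) and Erbb3 in Dom/Dom replicate 1 (10.03, others 10.80 to 10.96).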

How the results depend on the processing

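Of 240 values of the 10 genes under 24 alternatives, 215 kept their direction and their side of the threshold, 10 passed it and 15 changed sign. The median over the 10 genes was 0.19 and lay between 0.14 and 0.29 without 1 array and between 0.11 and 0.33 without 1 replicate number, lowest without number 4 and highest without number 1. It was 0.22 with arrays centred on their medians, 0.20 after quantile normalisation, 0.31 with array weights, 0.06 within replicates 1 and 2 and 0.36 within 3 and 4. The count over all genes was 33; it was 4 over all probe sets, 190 with array weights, 103 with the replicate block, 116 with a block of replicate sets, 4 within replicates 1 and 2, 352 within 3 and 4, and 475 with the replicate block and pair 1 left out. Without 1 array or 1 number it was 4 to 75: 10 to 12 without Dom/Dom or wild-type replicate 3 or 4, 51 without wild-type replicate 2, 75 without number 1 and 4 without number 3 or 4. The cause was not tested.

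Nfil3 stood above 0 with array weights (0.04), centred medians (0.03), quantile normalisation (0.03), within replicates 3 and 4 (0.09), and with the replicate block and pair 1 left out (0.11), and from -0.06 to 0.11 without arrays or numbers. Within replicates 1 and 2, Fos was at -0.08, Nr4a1 at -0.04 and Atf3 at -0.03. Nr4a1 ranged from -0.02 to 0.21 without arrays or numbers.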
